A study of Mus musculus with 12 samples.

Results

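Nnt, Gabra2, Wdfy1 and Cox7a2l are 4 genes at which the laboratory strain C57BL/6J is known for a structural or regulatory variant, and they are followed here through the retinas of C57BL/6J, of the wild-derived strain Cast/EiJ and of their hybrids. The members were chosen by name, and all 4 were found among the 37991 genes of the deposited tables. Retinas of both parental strains (F0) were set beside those of the reciprocal F1 hybrids, named B6xCast where C57BL/6J was the father and Cast/EiJ the mother, and CastxB6 where the roles were exchanged. Each of the 4 groups had 3 libraries of paired reads, and each library was made from 6 to 8 pooled retinas of male mice aged 8 weeks, so the spread between libraries, on which the p-values rest, is that between pools and not between animals. A variant that acts in cis, on its own copy of the gene, is seen as the same ratio between the 2 alleles of a hybrid as between the 2 parental strains, because both alleles of a hybrid sit in the same nuclei.

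The libraries held 8158534 to 12363291 unique hits, that is read pairs assigned to no more than 1 gene and, in F1, to 1 of its alleles. The C57BL/6J share of all autosomal allele-specific hits was 50.4% to 50.5% in the 6 F1 libraries. Rod markers were high in every library, summing to between 775450 and 846160 count equivalents, the authors' normalized estimate of read pairs per gene. The 7 lens markers summed to 8.4 to 210.2, with Lim2 alone at or under 3 count equivalents in every group. Markers of the retinal pigment epithelium summed to 241 to 283 in F0 C57BL/6J, 88 to 132.7 in F0 Cast/EiJ and 121.5 to 293.5 in F1. Blood markers summed to 657.7 to 998.9 in F0 C57BL/6J, 372.7 to 633.5 in F0 Cast/EiJ and 259.8 to 347 in F1. The part of these lists in the members' differences was not tested.

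The 4 genes have unlike roles. Nnt encodes the nicotinamide nucleotide transhydrogenase of the inner mitochondrial membrane, which makes NADPH for the removal of peroxides, and C57BL/6J carries a deletion of several of its exons. Gabra2 encodes the α2 subunit of the GABA-A receptor, a chloride channel of inhibitory synapses, and C57BL/6J carries a small intronic deletion beside one of its splice acceptors. Wdfy1 encodes an endosomal protein with WD repeats and a FYVE domain, which binds phosphatidylinositol 3-phosphate. Cox7a2l encodes a protein that holds respiratory complexes III and IV together in supercomplexes, and C57BL/6 mice carry a short coding form of it.

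Between the F0 strains, Gabra2 and Wdfy1 were lower in C57BL/6J, Cox7a2l was higher in C57BL/6J, and Nnt was not called. In the hybrids the same 3 genes differed between alleles in the same direction in both crosses. The Cox7a2l difference is uncertain, because Cast/EiJ libraries assigned most of the expression to Gm6969, a near-identical copy on another chromosome, and it was lost between the F0 strains when both were summed. In the F0 comparison limma called 3 of the 4 members at an adjusted p under 0.05, against 33.8% of the 14452 autosomal genes tested. In F1 it called 4 of 4, against 47% of 13414 genes. In F0 and F1 together 3 of 4 were called in the same direction, against 22.2% of the 13055 genes tested in both. With calls this common among all genes, the counts say little about the members, and the values of each gene follow.

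**Figure D1:**
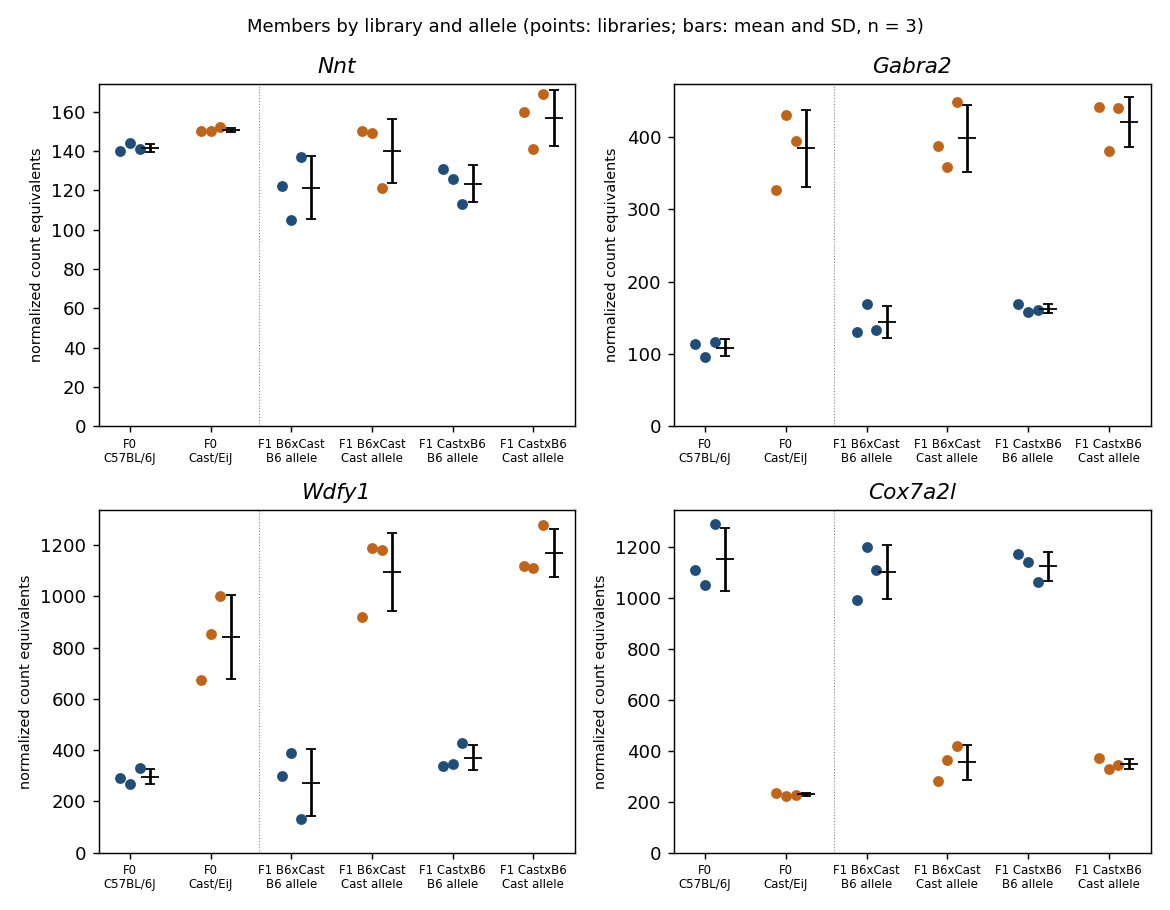
Normalized count equivalents (y axis, from 0) of the 4 genes in each library, by strain (F0) or by cross and allele (F1), with the mean and SD of 3 libraries beside the points. The C57BL/6J and Cast/EiJ points are apart for Gabra2, Wdfy1 and Cox7a2l in F0 and in both crosses, while those of Nnt lie between 105 and 169 throughout.

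Nnt (ENSMUSG00000025453) lies at chr13:120124255-120197804 on the minus strand of NCBI37. The NCBI37 genome was made from C57BL/6J, and its annotation shows the missing exons in how the gene is modelled. The transcript model Nnt-002 has 17 exons and joins its exon 7 directly to its exon 8 over an intron of 6901 bases. Models Nnt-201 and Nnt-202 have 35 exons, 18 of which are segments of 9 to 115 bases placed inside that intron. The junction is shown because it is where the reference lacks the exons, with the first 30 bases of exon 8 in capitals after the last 30 of exon 7, read on the minus strand from the exons at chr13:120170483-120170670 and chr13:120163436-120163581.

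Nnt exon 7 to exon 8: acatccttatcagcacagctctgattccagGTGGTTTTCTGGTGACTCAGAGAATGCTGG

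The authors built the Cast/EiJ transcripts from the reference transcripts and known variants, so Cast/EiJ exon sequence absent from the reference could not be mapped to. The Nnt values rest on sequence that the reference holds.

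Nnt had 140, 144 and 141 count equivalents in F0 C57BL/6J. It had 150, 150 and 152 in F0 Cast/EiJ. The strains did not overlap, as in 48% of all genes tested, and the difference was small. The log2 difference, Cast/EiJ minus C57BL/6J, was 0.09 ± 0.11 (SE), with an adjusted p of 0.572 in limma, and TMM scaling turned it to -0.0088. Per length, on a scale like FPKM, which corrects for transcript length and depth, the means were 2.33 in C57BL/6J and 2.35 in Cast/EiJ.

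In the F1 libraries the C57BL/6J allele of Nnt ranged from 105 to 137 count equivalents with a median of 124. The Cast/EiJ allele ranged from 121 to 169 with a median of 149.5. The alleles overlapped, and the Cast/EiJ allele was the higher in 5 of 6 libraries, the exception being replicate 3 of F1 B6xCast. The allelic log2 difference over both crosses was 0.27 ± 0.08 (limma adjusted p = 0.0103), a 1.21-fold excess of the Cast/EiJ allele. That call was lost with the unique hits in edgeR (0.20, adjusted p = 0.0896), with the deposited log expression (0.20, adjusted p = 0.0802), and without replicate 1 or 2 of F1 B6xCast or replicate 3 of F1 CastxB6. The C57BL/6J allele took 482 of 1025 allele-specific unique hits, or 47.0% (Wilson 95% interval 44.0% to 50.1%). Among the libraries the share ran from 38.4% to 52.6%, and in 5 of the 6 libraries its interval held 50%. Such intervals cover counting error only.

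Gabra2 (ENSMUSG00000000560) lies at chr5:71352296-71487088 on the minus strand of NCBI37, between Gabrg1 and Gabra4 in a cluster of GABA-A receptor genes, and was annotated with 1 transcript of 10 exons. Splice acceptors of the gene are shown because the known C57BL/6J variant lies beside one of them, and they are read from the C57BL/6J genome. The lines give the 3 acceptors of 9 with the fewest pyrimidines among the 18 bases before the AG, which is in capitals and is followed by 10 exon bases. These acceptors had 10, 10 and 11 pyrimidines, against 13 to 18 in the other 6. Cast/EiJ sequence was not read here, so the counts show neither a strain difference nor which acceptor lies beside the variant. They lie at chr5:71483317-71483346, chr5:71405866-71405895 and chr5:71404013-71404042, on the minus strand.

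Gabra2 exon 3 acceptor: gtgtaaaattatctgtttAGgttggtgctg

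Gabra2 exon 5 acceptor: aattgtaaatttatatttAGgagtatacaa

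Gabra2 exon 6 acceptor: agtggcattttggcttctAGgcttacagtc

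Gabra2 was lower from C57BL/6J in both generations. In F0 C57BL/6J it had 114, 95.2 and 117 count equivalents. In F0 Cast/EiJ it had 327, 431 and 394. The lowest Cast/EiJ library was above the highest C57BL/6J library, and the log2 difference was 1.81 ± 0.14 (limma adjusted p = 2.06e-05), or 3.50-fold with a 95% interval of 2.81 to 4.36. Per length, the means were 2.45 ± 0.28 (SD, n = 3) in C57BL/6J and 8.60 ± 1.14 in Cast/EiJ on the scale like FPKM.

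In F1 the C57BL/6J allele of Gabra2 ranged from 130 to 169 count equivalents with a median of 159.5. The Cast/EiJ allele ranged from 358 to 448 with a median of 414. The alleles did not overlap, as in 25.5% of all genes tested, and the Cast/EiJ allele was 2.12 to 3.37 times the other within each of the 6 libraries. The allelic log2 difference was 1.46 ± 0.12 in F1 B6xCast (limma adjusted p = 8.68e-08) and 1.36 ± 0.12 in F1 CastxB6 (adjusted p = 1.98e-07). The C57BL/6J allele took 27.9% of 1583 allele-specific unique hits (Wilson 25.7% to 30.1%), with library values of 23.2% to 32.3%.

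The sum of the 6 amacrine cell markers, among them the GABA-synthesizing enzymes Gad1 and Gad2, also differed between the F0 strains, while single markers were not examined. Their summed level was 7825 to 9537 count equivalents in F0 C57BL/6J and 10685 to 11678 in F0 Cast/EiJ, and 9644.5 to 10486.5 in the F1 libraries. The sum of the 6 ganglion cell markers moved the other way, from 10976 to 12497 in F0 C57BL/6J and from 7745 to 8674 in F0 Cast/EiJ. So did those of cones (11610 to 13330 against 8370 to 9370) and bipolar cells (15470 to 18110 against 14220 to 15070). Rod markers summed to 791900 to 795300 in F0 C57BL/6J and 799910 to 846160 in F0 Cast/EiJ. In bulk retina fewer cells of a type and less RNA per cell cannot be told apart, and the part of any of these marker lists in the F0 difference of Gabra2 was not tested. The F1 allelic difference compares alleles within one library.

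Wdfy1 (ENSMUSG00000073643) lies at chr1:79698837-79772718 on the minus strand of NCBI37. The gene holds a tandem repeat of 7279 bases in the C57BL/6J genome, at chr1:79712006-79719284 and chr1:79719448-79726726, and the 2 copies were 100% identical. Each copy holds 3 of the annotated exons. In 4 of the full-length models of 12 exons, which use the exons of one copy or the other, the 4551 bases of the transcript were the same, so a read from C57BL/6J could not be placed in one model rather than another. A gene-level total was analysed here.

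Wdfy1 had 292, 269 and 329 count equivalents in F0 C57BL/6J. It had 674, 855 and 1000 in F0 Cast/EiJ. The strains did not overlap, and the log2 difference was 1.49 ± 0.14 (limma adjusted p = 8.48e-05), or 2.81-fold with a 95% interval of 2.24 to 3.53. The size depends on the unit. On the scale like FPKM the means were 6.17 ± 0.26 (SD, n = 3) in C57BL/6J and 10.5 ± 1.83 in Cast/EiJ, and the log2 difference in limma on the deposited log expression was 0.75 with an adjusted p of 0.00761.

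In F1 the C57BL/6J allele of Wdfy1 had 299, 388 and 130 count equivalents in the B6xCast libraries and 340, 346 and 428 in the CastxB6 libraries. The Cast/EiJ allele had 920, 1190 and 1180 in B6xCast and 1120, 1110 and 1280 in CastxB6. No value of one allele reached those of the other. The value of 130, in replicate 3 of F1 B6xCast, stood below the rest, while the unique hits of that allele in the same library were 207, near the 222 and 259 of the other two, and on the scale like FPKM it was the highest of the 3 at 5.45, against 3.96 and 4.68. The allelic log2 difference was 2.14 ± 0.25 in F1 B6xCast (limma adjusted p = 5.09e-06) and 1.66 ± 0.25 in F1 CastxB6 (adjusted p = 7.71e-05). Without replicate 3 it was 1.62 in F1 B6xCast. The C57BL/6J allele took 22.2% of 6585 allele-specific unique hits (Wilson 21.2% to 23.3%), and the 6 library values lay within 21.0% to 23.0%, the narrowest range of the 4 genes.

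**Figure D2:**
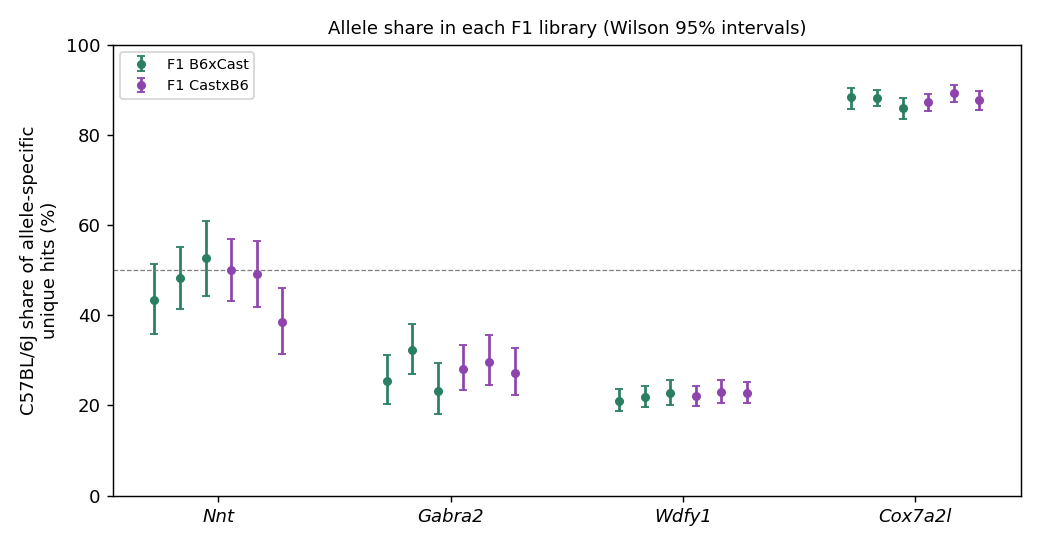
C57BL/6J share of allele-specific unique hits in percent (y axis, 0 to 100) for each of the 6 F1 libraries, with Wilson 95% intervals and a dashed line at 50%. Nnt lies around the line, Gabra2 between 23.2% and 32.3%, Wdfy1 between 21.0% and 23.0%, and Cox7a2l between 86.0% and 89.3%.

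Cox7a2l (ENSMUSG00000024248) lies at chr17:83901259-83913673 on the minus strand of NCBI37. A processed copy, Gm6969, annotated as a transcribed pseudogene, lies at chr12:25322866-25323897 on the minus strand. The 1078-base transcript Cox7a2l-201 aligned with Gm6969 over 1037 positions with an identity of 98.0%. The coding sequence of Cox7a2l, with its stop codon, has 336 bases in the C57BL/6J genome, and Gm6969 holds 6 more bases in that stretch. The surrounding bases are shown because they are where the short form of the gene differs from the copy, with the unequal bases in capitals. The Cox7a2l line is transcript sequence that crosses the last intron, between chr17:83902035 and chr17:83903457, and the Gm6969 line is chr12:25323626-25323692.

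Cox7a2l: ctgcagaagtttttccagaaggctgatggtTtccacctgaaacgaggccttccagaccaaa

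Gm6969: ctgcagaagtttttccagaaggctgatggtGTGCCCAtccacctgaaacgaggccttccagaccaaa

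No alignment as long as a read and with at least 90% identity to the coding sequences of Nnt, Gabra2 or Wdfy1 was found outside those genes. For Cox7a2l, searched with the coding sequence of its longer transcript model, 3 such alignments on 2 chromosomes were found outside the gene. The longest lies within Gm6969 on chromosome 12. Expression at the locus on the other chromosome was not examined, and the sums below hold Cox7a2l and Gm6969 only.

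Cox7a2l was higher from C57BL/6J in every comparison of it alone. In F0 C57BL/6J it had 1110, 1050 and 1290 count equivalents. In F0 Cast/EiJ it had 235, 223 and 227. The strains were far apart, with a log2 difference of -2.32 ± 0.10 (limma adjusted p = 3.35e-07), and the 95% interval of the ratio of C57BL/6J to Cast/EiJ was 4.31 to 5.81. In F1 the C57BL/6J allele ranged from 991 to 1200 with a median of 1125, and the Cast/EiJ allele from 280 to 417 with a median of 354.5. The alleles did not overlap, and the log2 difference was -1.65 ± 0.11 in F1 B6xCast (adjusted p = 3.61e-09) and -1.69 ± 0.11 in F1 CastxB6 (adjusted p = 2.86e-09) in limma. The C57BL/6J allele took 87.9% of 5943 unique hits (Wilson 87.0% to 88.7%).

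Gm6969 showed the opposite pattern. It was listed at 0.00425 to 0.00599 count equivalents, with 0 unique hits, in the F0 C57BL/6J libraries. In F0 Cast/EiJ it had 990, 799 and 882 count equivalents, with 454, 378 and 541 unique hits. In F1 its Cast/EiJ allele ranged from 1020 to 1160 count equivalents and its C57BL/6J allele from 0.00773 to 1.32, with 1 unique hit in the 6 libraries. Gm6969 was thus near 0 wherever the template was C57BL/6J and held most of the expression wherever it was Cast/EiJ.

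The sum of Cox7a2l and Gm6969, taken after their values were seen, was alike in the F0 strains. It was 1110, 1050 and 1290 count equivalents in C57BL/6J and 1225, 1022 and 1109 in Cast/EiJ. These values overlapped, and in limma the log2 difference of the sum was -0.04 ± 0.10, with a 95% interval of -0.26 to 0.19 and an adjusted p of 0.798. In F1 the direction of the sum was opposite to that of Cox7a2l alone, at 991 to 1200 for the C57BL/6J allele and 1349 to 1524 for the Cast/EiJ allele, a log2 difference of 0.37 ± 0.06 (limma adjusted p = 5.51e-05). The summed unique hits gave a C57BL/6J share of 63.4% of 8243 hits (Wilson 62.3% to 64.4%). Read pairs that fit both genes are in the count equivalents but not in the unique hits. Whether the Cast/EiJ values of Gm6969 are transcripts of the copy or of Cox7a2l cannot be told apart in these values, and the Cox7a2l difference is uncertain in size and direction.

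**Figure D3:**
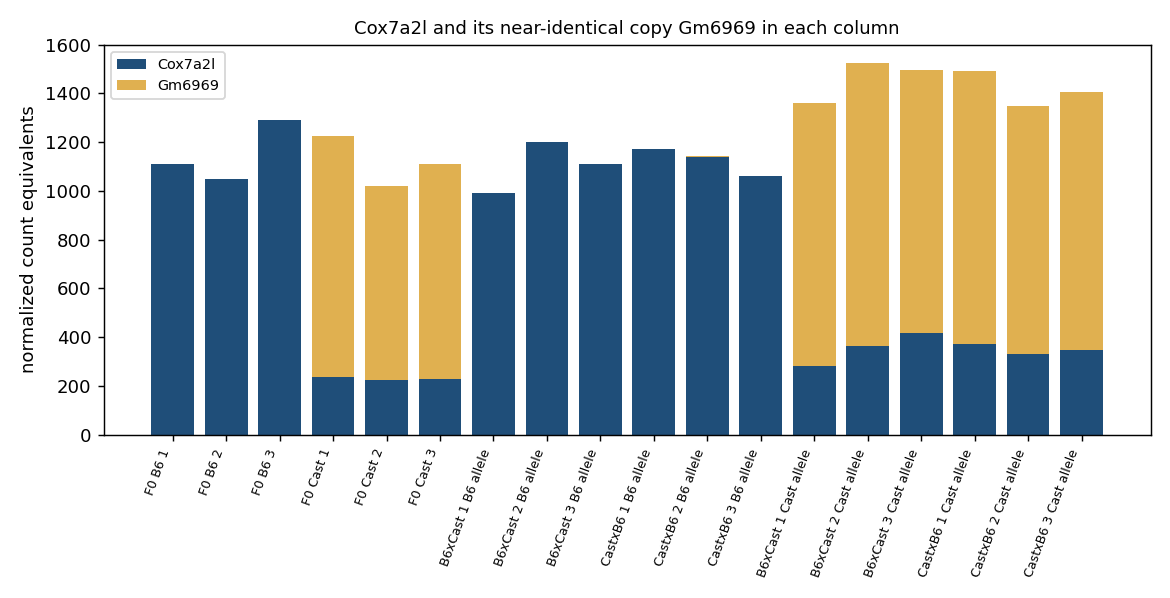
Normalized count equivalents (y axis, from 0) of Cox7a2l and its near-identical copy Gm6969, stacked for each F0 library and each allele of each F1 library. Gm6969 is near 0 in the C57BL/6J columns and is the larger segment in all Cast/EiJ columns, and the F0 sums span 1050 to 1290 in C57BL/6J and 1022 to 1225 in Cast/EiJ.

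The next comparison asked whether the F0 strain difference and the F1 allelic difference of a gene were unequal, as they are when factors acting in trans add to the difference. Each F0 library was sequenced on 1 lane and each F1 library on 2. F0 reads were mapped to the transcripts of 1 strain, and F1 reads to a hybrid set of both. In this comparison, and in that of the hybrids with their parents, lanes, mapping and generation cannot be told apart. Of the members 1 of 4 was called, against 14% of the genes tested. For Gabra2 the F0 difference exceeded the F1 difference by a log2 of 0.39 ± 0.16 (limma adjusted p = 0.112, 95% interval 0.06 to 0.73). For Wdfy1 the contrast, F0 minus F1, was -0.41 ± 0.33 (adjusted p = 0.449 in limma, 95% interval -1.10 to 0.28), but the unique hits in edgeR gave -0.58 with an adjusted p of 0.000687 and the deposited log expression -0.72 with an adjusted p of 0.0117. For Nnt the contrast was -0.19 ± 0.15 (limma adjusted p = 0.444). For Cox7a2l it was -0.65 ± 0.14 (limma adjusted p = 0.00424), and with the unique hits in edgeR the sign turned to 0.31 (adjusted p = 0.248). With Gm6969 summed in, it was -0.41 in limma (adjusted p = 0.0155), while in the summed unique hits edgeR called it with the sign turned, at 0.50.

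**Figure D4:**
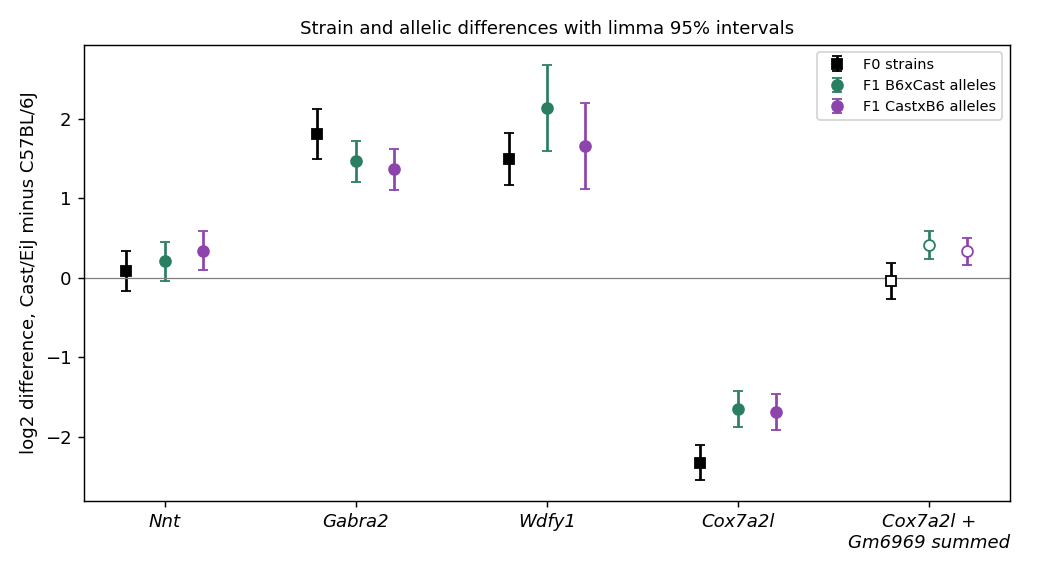
Log2 difference, Cast/EiJ minus C57BL/6J (y axis), of the 4 genes between the F0 strains and between the alleles of each F1 cross, with 95% intervals from limma on 3 libraries a group. Open symbols give Cox7a2l and Gm6969 summed, whose F0 difference is -0.04 where that of Cox7a2l alone is -2.32.

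The 2 crosses gave like allelic differences. In F1 B6xCast limma called 3 of 4 members, against 34.4% of all genes, and in F1 CastxB6 4 of 4, against 33%. Nnt was the gene called in one cross and not in the other, at 0.21 ± 0.11 (limma adjusted p = 0.181) in B6xCast and 0.34 ± 0.11 (adjusted p = 0.0298) in CastxB6. Without replicate 3 of F1 B6xCast the first was called too (0.40, adjusted p = 0.0232), and the second was lost without replicate 1 of F1 B6xCast or replicate 1 or 3 of F1 CastxB6 and in the other units (adjusted p of 0.0512 to 0.265). Over all alternatives the size of the second was 0.22 to 0.43. The contrast of the maternal with the paternal allele, in which that difference between the crosses is tested, called 0 of the 4 members, against 0.492% of all genes, that is 66 genes in limma, with 870 at an unadjusted p under 0.05. The edgeR fit of the unique hits called 0 of 4 too, and 38 genes in all. The values of the members were between -0.07 and 0.24 on the log2 scale, the 95% intervals between -0.24 and 0.62.

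The level of each hybrid, as the mean of its 2 alleles, was set against both parents. Gabra2 had 259, 263.5 and 290.5 count equivalents in F1 B6xCast and 305.5, 269.5 and 300.5 in F1 CastxB6, all between the ranges of the parents. It was 1.37 ± 0.10 above F0 C57BL/6J and -0.44 ± 0.10 from F0 Cast/EiJ on the log2 scale (limma adjusted p = 2.21e-06 and 0.00568). Wdfy1 had 609.5 to 854 in the 6 F1 libraries, 127.7% of the mean of the parents, and all 6 were above that mean. It was 1.29 ± 0.12 above F0 C57BL/6J (limma adjusted p = 2.21e-05), and its difference from F0 Cast/EiJ was -0.20 ± 0.12 (adjusted p = 0.231, 95% interval -0.47 to 0.07), which was called without replicate 1 of F0 Cast/EiJ (-0.35, adjusted p = 0.0436). Cox7a2l had 635.5 to 782, or 106.1% of the mean of the parents, and with Gm6969 summed in the hybrids were called against neither parent in limma (0.15, adjusted p = 0.198, and 0.19, adjusted p = 0.0800). Nnt had 127 to 145.5, 92.6% of the mean of the parents, and was called against neither. Of the 6 F1 libraries, 6 were above the mean of the parents for Gabra2 as well, at 114.2% of it, 5 for Cox7a2l alone and 0 for Nnt. In all, 3 of 4 members were called against F0 C57BL/6J, where 20.4% of all genes were, and 2 of 4 against F0 Cast/EiJ, where 33.7% were. Between the crosses 0 of 4 were called in limma, where 0.0816% of all genes were, 12 genes, with 409 at an unadjusted p under 0.05.

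Of all genes tested between the F1 alleles 47% were called, and the counts of called neighbours are to be read against that share. Around Nnt, 5 genes within 500 kb of either end were tested between the F1 alleles and 3 were called. The uncharacterized gene 4833420G17Rik, 53.8 kb upstream, had a log2 difference of -2.58 ± 0.08, opposite in direction to Nnt. Gm7120 had -0.80 ± 0.10. Paip1, which binds poly(A)-binding protein in translation, was 19.6 kb upstream and had 0.42 ± 0.07. Around Gabra2, 2 of 2 genes tested were called, both in the direction of Gabra2. Gabra4, the α4 subunit gene, 473.9 kb upstream, had 0.89 ± 0.08, and Gabrg1, the γ1 subunit gene, 118.4 kb downstream, had 0.45 ± 0.14. The fourth gene of the cluster, Gabrb1, had 0.20 ± 0.10 and was not called (limma adjusted p = 0.116). Gabra2 had the largest difference of the cluster in F0 and in F1.

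Around Wdfy1, 3 of 5 genes tested were called. Scg2, which encodes the granin secretogranin 2, had a log2 difference of 0.53 ± 0.04. Cul3, a scaffold of ubiquitin ligases, had -0.42 ± 0.04. Mrpl44, a mitochondrial ribosomal protein gene that overlaps the far start of Wdfy1 on the other strand, had -0.28 ± 0.07, and the libraries did not keep strand. Around Cox7a2l, 2 of 5 genes tested were called. C430042M11Rik had -5.37 ± 0.20 and Kcng3, a modulatory potassium channel subunit gene, -0.72 ± 0.23, both in the direction of Cox7a2l alone, while the nearest gene tested, Eml4, had -0.08 and was not called. The Cast/EiJ allele of C430042M11Rik had a mean of 0.516 count equivalents, near 0, so the size of its difference is uncertain. Kcng3 was low, with allele means of 17.0 and 9.94, and was not called in F0 (limma adjusted p = 0.375).

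**Figure D5:**
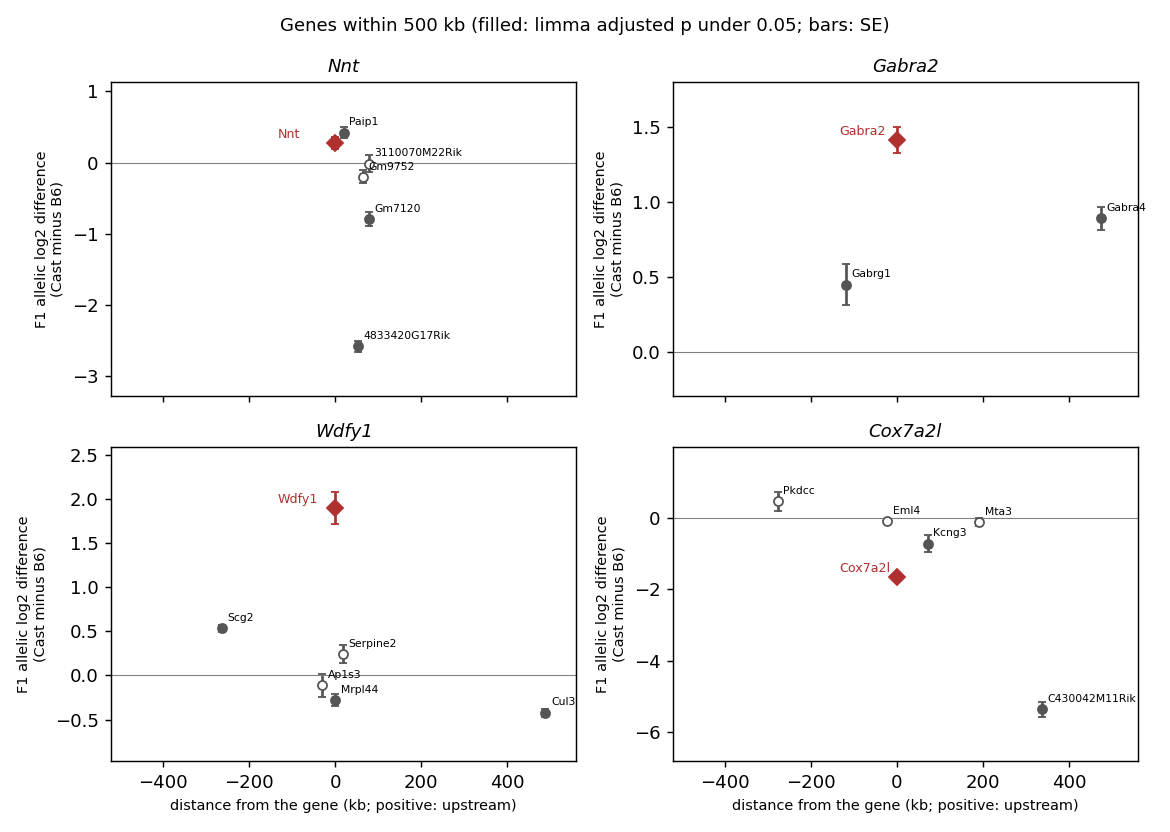
F1 allelic log2 difference, Cast/EiJ minus C57BL/6J (y axis, SE bars), of each member (diamond) and of the genes tested within 500 kb, by distance in kb (x axis, positive upstream). Filled circles were called by limma. Wdfy1, at 1.90, stands above its neighbours, which lie between -0.42 and 0.53, while both neighbours of Gabra2 are above 0.

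Genes of the 4 pathways differed in either direction, and each list below includes the member itself. In the GABA-A receptor list, with its postsynaptic partners, 24 genes were named and 18 tested in F0, of which 2, Gabra2 and Gabra4, were higher and 2 lower in Cast/EiJ, or 22.2% called against 33.8% of all genes. In F1, 3 of 18 were higher and 7 lower from the Cast/EiJ allele, or 55.6% called against 47%, with a list median of -0.08 against 0.001 over all genes tested. Besides Gabra2, genes called in both in one direction included Gabra4 (1.15 ± 0.13 in F0 and 0.89 ± 0.08 in F1) and Gabrr2, the ρ2 subunit of bipolar cell receptors (-0.52 ± 0.07 and -0.20 ± 0.05).

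In the list of mitochondrial NADPH and peroxide metabolism, 20 genes were tested in F0, of which 2 were higher and 3 lower in Cast/EiJ, or 25% called against 33.8% of all genes. In F1, 9 of 19, Nnt among them, were higher and 2 lower from the Cast/EiJ allele, or 57.9% called against 47%, with a median of 0.15. Aldh4a1, of proline breakdown, had the largest F1 difference called in both (-0.90 ± 0.10 in F0 and -0.63 ± 0.06 in F1). Glrx5 (0.42 ± 0.11 and 0.28 ± 0.07), Glrx2 (-0.48 ± 0.08 and -0.22 ± 0.05), both glutaredoxins, and Sod2, the mitochondrial superoxide dismutase (0.22 ± 0.06 and 0.15 ± 0.03), followed.

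In the list of FYVE domain proteins, 26 of 29 genes were tested in F0, of which 8, Wdfy1 among them, were higher and 3 lower in Cast/EiJ, or 42.3% called against 33.8% of all genes. In F1, 10 of 25, again with Wdfy1, were higher and 5 lower from the Cast/EiJ allele, or 60% called against 47%, with a median of 0.04. Wdfy1 had the largest difference of the list in both, in count equivalents. Of the other genes called in both in one direction, those with the largest F1 differences were Fgd3, a guanine nucleotide exchange factor (1.22 ± 0.26 in F0 and 1.42 ± 0.14 in F1), Zfyve28 (-1.09 ± 0.12 and -1.05 ± 0.07), Pikfyve, the kinase that makes phosphatidylinositol 3,5-bisphosphate (0.77 ± 0.08 and 0.80 ± 0.05), and Zfyve20, of endosome recycling (-0.75 ± 0.09 and -0.64 ± 0.06). The paralog Wdfy2 had 0.04 ± 0.14 in F0 and 0.06 ± 0.08 in F1 and was not called.

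In the list of cytochrome c oxidase subunits and supercomplex factors, 16 of 22 genes were tested in F0, of which 4 were higher and 2, Cox7a2l itself and Higd2a, lower in Cast/EiJ, or 37.5% called against 33.8% of all genes. In F1, 7 of 15 were higher and 3, again with Cox7a2l and Higd2a, lower from the Cast/EiJ allele, or 66.7% called against 47%, with a median of 0.06. The calls of Cox7a2l in these counts are for the gene alone, without Gm6969. Cox6a1 (0.84 ± 0.07 in F0 and 0.52 ± 0.05 in F1), Cox7c (0.51 ± 0.17 and 0.48 ± 0.12) and Cox4i2 (0.38 ± 0.12 and 0.35 ± 0.11), all subunits of complex IV, were higher from Cast/EiJ. Higd2a, an assembly factor of that complex, was lower (-1.36 ± 0.10 and -0.43 ± 0.06). Of the paralogs of Cox7a2l, Cox7a2 had -0.31 ± 0.23 in F0 and 0.44 ± 0.15 in F1 (limma adjusted p = 0.338 and 0.0216), and Cox7a1 was too low to be tested.

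Over the 18 columns, 6 of F0 libraries and 12 of F1 alleles, the genes most like each member were found by Pearson correlation of log2 count equivalents among the genes of the F1 fit. The columns share strain and, in F1, library, so that any gene with a strain difference correlates with another, and r is a description. For Gabra2 they were A930016O22Rik (r = 0.982), Sag (0.981), the rod arrestin, and Ugdh (0.980), which makes UDP-glucuronic acid. For Wdfy1 they were Galnt11 (r = 0.966), Pirt (0.960) and Cdc25a (0.95). For Cox7a2l they were Heatr5a (r = 0.993), Cd59a (0.993), an inhibitor of complement, and Dhdh (0.990), all higher from C57BL/6J. For Nnt the highest values were lower, with Usp30 (r = 0.836), a deubiquitinase of the outer mitochondrial membrane, Esyt1 (0.833) and 4930509G22Rik (0.827). Gabra2 and Wdfy1 had an r of 0.929 with each other.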

How the data were processed

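Retinal mRNA was measured in 12 libraries. The authors trimmed reads with Trim Galore 0.2.6, mapped them with Bowtie 0.12.9 to strain-specific (F0) or hybrid (F1) transcripts of NCBI37 (mm9), and estimated expression with MMSEQ. The deposited signal values are normalized count equivalents, in 1 column per F0 library and 1 per F1 allele. The authors' natural log expression and its posterior SD, and unique hits, a raw count deposited per column, were also read. The authors' table of regulatory model probabilities was not used.

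The F0 strains were compared with limma 3.58.1 (variance trend) on log2(count equivalent + 1), over autosomal genes with at least 10 in at least 3 libraries. The alleles were compared in a fit of 18 columns, which took a correlation of 0.135 between columns of one F1 library, over genes whose allele-specific unique hits averaged 10 or more. Adjusted p-values are Benjamini-Hochberg over all genes tested, with calls under 0.05, and a difference on this scale understates that of low genes. The fits were also run on simulated data with independent columns, a run that does not cover the correlation within a library. Alternatives used edgeR 4.0.16, DESeq2 1.42.0, other filters, pseudocounts and units, a replicate block and libraries left out. Sequences were read from NCBI37 with samtools 1.23.1 and aligned with blastn 2.17.0.

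The members and gene lists were chosen with earlier results of these data known. Named genes are the members, up to 4 genes per list called in F0 and F1 in one direction, paralogs, up to 3 called neighbours and the 3 most correlated genes per member, and 1 gene that the rule names is not reported here. Gm6969 and the sums with it were added after its values were seen.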

Additional observations from a re-analysis of the deposited data

Results flagged for a closer look

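The F0 strain difference of Cox7a2l exceeded its F1 allelic difference in size, by a log2 of -0.65 in limma, a difference between F0 and F1 that passed the test itself. The unique hits of Cox7a2l in edgeR gave the reverse order, -2.48 in F0 and -2.81 in F1, with the contrast not called. Its F0 C57BL/6J libraries had 1050 to 1290 count equivalents and the F1 C57BL/6J alleles 991 to 1200, while the Cast/EiJ values were 223 to 235 in F0 and 280 to 417 in F1. Gm6969, the near-identical copy, had 799 to 990 in F0 Cast/EiJ and 1020 to 1160 from the Cast/EiJ allele in F1. With Gm6969 summed in, the difference was -0.41 (limma adjusted p = 0.0155), and in the summed unique hits it was 0.50 (edgeR adjusted p = 0.0127). F0 libraries had 1 lane of sequencing and F1 libraries 2, and only F1 reads were mapped to hybrid transcripts. Neither can be told apart from the generation. No library stood apart by Dixon's criterion in the 12 sets of 6 F1 values examined, of which chance flags about 1 in 20.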

How the results depend on the processing

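Gabra2 and Wdfy1 kept their direction and call between the F0 strains and between the F1 alleles under every alternative run, at 1.71 to 1.92 and 0.75 to 1.64 in F0 and at 1.34 to 1.51 and 1.48 to 2.03 in F1. Cox7a2l alone kept both too (-2.48 to -2.24 in F0 and -2.81 to -1.63 in F1). With Gm6969 summed in, its F0 difference was -0.038, or -0.24 in the unique hits with edgeR, neither called, and its F1 difference turned to 0.37, with 0.41 and 0.33 in the 2 crosses, but stayed at -0.75 in the unique hits. The sum also turned the hybrid level against F0 C57BL/6J to 0.15 and the difference between crosses to -0.011. The F0 minus F1 contrast of Cox7a2l turned to 0.31 in the unique hits and to 0.50 in their sum with Gm6969, which read pairs shared by both genes do not enter. That of Wdfy1 was called at -0.58 in the unique hits and at -0.72 in the deposited log expression.

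The F1 call of Nnt was lost in the unique hits with edgeR (0.20) and in the log expression (0.20), and libraries left out gave 0.20 to 0.37 (adjusted p over all alternatives 0.00131 to 0.0896). TMM scaling turned its F0 difference to -0.0088. Libraries left out gave maternal minus paternal values of -0.14 to 0.029 for Nnt, -0.020 to 0.15 for Gabra2, -0.021 to 0.37 for Wdfy1 and -0.040 to 0.062 for Cox7a2l, and cross differences of -0.072 to 0.078 for Cox7a2l, none called. In each of the first 4 ranges the sign that differs from that with all libraries came without replicate 3 of F1 B6xCast, and for Cox7a2l also without replicate 2 of F1 CastxB6. The causes were not tested.

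Genes called in F0 fell from 4887 to 3161 without a filter, parent-of-origin calls from 66 to 38 in the unique hits, and calls between crosses ranged from 9 to 19 with a library left out. TMM moved the share of F0 calls higher in Cast/EiJ from 50.9% to 34%, of F0 minus F1 calls above 0 from 40.4% to 22.8%, of hybrid calls above F0 C57BL/6J from 51.6% to 63.1% and above F0 Cast/EiJ from 52% to 75.8%, where it moved the median of all genes from -0.014 to 0.092.

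Replicate numbers are shared by the groups. Same-numbered libraries of F0 C57BL/6J, F0 Cast/EiJ and F1 B6xCast deviated together, with r of 0.030 to 0.326 over genes, highest for replicate 1 (0.285 to 0.326). Those of F1 CastxB6 did not follow the other groups (r of -0.115 to 0.032). What the shared number stands for was not tested. A replicate block called 6376 genes in F0, against 4887 without it, and 6404 between alleles, against 6305, and changed no call of a member. Depth was low for both alleles of Nnt, with 63 to 104 unique hits an allele in F1, and for the C57BL/6J allele of Gabra2, with 49 to 89.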
